A study of Mus musculus with 139 samples.

Results

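The C/D box small nucleolar RNAs (snoRNAs) described here are the genes of type snoRNA whose name starts with Snord and whose FPKM summed to 8 or more over the 16 libraries of a sucrose gradient of nuclear lysate. FPKM is fragments per kilobase of gene, scaled to the depth of the library. Division by length gives short genes more weight, so a share of summed FPKM is not a share of reads or of RNA. The rule left 62 members of the 95 Snord genes listed, within 1453 genes of type snoRNA and 52885 genes in all. Their level in the gradient chose them, so their presence there is no result. The last members inside the limit were Snord4a, Snord60 and Snord52, with sums of 13.5, 10.2 and 8.08 FPKM. The first genes outside it were Snord72, Snord70 and Snord91a, with sums of 7.97, 5.76 and 2.47 FPKM. Of the 33 Snord genes left out, 29 were listed at 0 in all 16 gradient libraries.

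All cells were mouse and came from 1 embryonic stem cell (ESC) line, AID-FBEXOSC2, in which EXOSC2, a subunit of the RNA exosome, carries an auxin-inducible degron. The auxin IAA at 0.5 mM triggers loss of the tagged protein, and cells at 0 h had no IAA. No cells without the degron were treated with IAA, so effects of IAA itself and of EXOSC2 loss cannot be told apart. ESCs were kept in serum with LIF on gelatin. The gradient held nuclear lysate of ESCs at 12 h of IAA and at 0 h in fractions F2 to F9, with 1 library each. Fractions of ESCs at 4 h of IAA and at 0 h were chrRNP (insoluble chromatin and poorly extracted material), np (the soluble nuclear part), cyto (cytoplasm) and wcl (whole cells). Total RNA was taken after 0, 4 and 20 h of IAA from ESCs and from iMEFs, fibroblast-like cells derived from the line with 1 µM retinoic acid. Ribosomal RNA was depleted in these libraries. Nascent RNA was labelled with 1 mM ethynyl uridine for 10 min after 0, 1, 2 and 4 h of IAA. Polyadenylated RNA was taken from ESCs (RAD0) and from ESCs given 2 µM retinoic acid without LIF (RAD1) after 0, 4 and 20 h, and from an insoluble nuclear pellet (RNPmesh) after 0, 4 and 12 h. Outside the gradient each group had 2 libraries. The labels do not say whether these came from separate cultures, so p-values measure only the spread between the libraries.

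C/D box snoRNAs carry the short C and D boxes, are bound by fibrillarin (Fbl), Nop56, Nop58 and Snu13, and sit mostly in the nucleolus. Most guide fibrillarin to a ribose of ribosomal RNA, which is then methylated, while a few (U3, Snord118 or U8, Snord14 or U14, Snord22 or U22) are needed to cut or fold the ribosomal precursor. Snord13 or U13 is instead needed, in human cells, for acetylation of small-subunit ribosomal RNA. In mammals most are cut out of an intron of a host gene after splicing. The nuclear RNA exosome, with Exosc10, is known to trim the ends of snoRNA precursors, best described in yeast.

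Of the 62 members, 59 lay within the span of another gene, and these hosts numbered 42. The exceptions were Snord13, Snord104 and Snord118. Hosts with a role in translation held 23 members, other coding genes 22 and noncoding genes 14. Rpl13a, a large-subunit ribosomal protein gene, held 4 members (Snord32a, Snord33, Snord34 and Snord35a). Hspa8, Rpl23a and the noncoding gene 2410006H16Rik held 3 each. Members ran from 64 to 238 bases with a median of 80, and 10 of them had at least 100 bases. The files give no strand, so reads from a member, from an unspliced host or from an antisense gene cannot be told apart. A host by this rule may lie on the other strand: Gm26590 for Snord8 and Rab26os for Snord60 are listed as antisense RNA.

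Several snoRNA hosts are known to start with a tract of pyrimidines, a feature shared with ribosomal protein mRNAs. The starts below show that tract, in capitals, where a script found it. It was searched as a C within 5 bases of the annotated start followed by at least 5 bases that are C or T, on the strand of the gene alone. Each window runs from 60 bases before the start to 20 after it, in RefSeq's GRCm38.p6.

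Rpl13a (host of Snord32a, chr7:45128726-45128805, minus strand): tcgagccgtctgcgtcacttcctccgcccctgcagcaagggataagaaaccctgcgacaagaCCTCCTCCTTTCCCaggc
2410006H16Rik (host of Snord49b and Snord65, chr11:62602817-62602896, plus strand): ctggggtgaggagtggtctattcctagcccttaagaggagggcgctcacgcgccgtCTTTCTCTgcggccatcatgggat
Snhg12 (host of Snord99, chr4:132308618-132308697, plus strand): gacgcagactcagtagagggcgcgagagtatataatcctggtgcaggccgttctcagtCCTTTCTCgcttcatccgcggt
Nop58 (host of Snord11, chr1:59684946-59685025, plus strand): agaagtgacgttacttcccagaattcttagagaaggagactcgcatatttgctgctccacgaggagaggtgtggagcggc

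The tract was present in 9 of the 31 hosts with a promoter entry (29.0%), against 3229 of 27025 genes (11.9%). It was found in 6 of 9 noncoding hosts, in 3 of 11 translation hosts and in 0 of 11 other coding hosts. Nop58 is shown as a host without it. A match is a description of these letters, and no match says nothing about how a gene is controlled.

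A few members carried most of the signal in the gradient. The member sums ran from 8.08 to 22250 FPKM with a median of 339, and the 5 highest members held 55.8% of the total and the 10 highest 73.6%. Snord13 was first at 22250 FPKM (chr8:31149864-31149967, mm10). Snord104 followed at 14840 FPKM (chr11:106500993-106501062). Snord32a in Rpl13a had 11269 FPKM (chr7:45127382-45127464), Snord14e in Hspa8 had 7136 FPKM (chr9:40804748-40804837) and Snord22 in Snhg1 had 7026 FPKM (chr19:8725866-8725991). The next 5 were Snord99 in Snhg12 (chr4:132310691-132310764), Snord100 in Rps12 (chr10:23785750-23785823), Snord17 in Snx5 (chr2:144265979-144266216), Snord49b (chr11:62603079-62603150) and Snord65 (chr11:62604515-62604586), the last pair both in 2410006H16Rik. No member had a host in the imprinted Snurf-Snrpn cluster: all Snord116 copies, Snord64 and Snord107 fell under the limit.

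As facts of the whole series, the libraries used numbered 70 in 7 tables, and depth is unknown where only FPKM were deposited. Summed FPKM ran from 131766 to 764218 between gradient libraries, so levels were also compared after scaling. ESC markers summed to 1607 and 1557 FPKM in ESCs at 0 h and to at most 7.0 FPKM in iMEF libraries, while fibroblast markers summed to 2255 and 2253 FPKM in iMEFs at 0 h. Exosc2 mRNA had 3.75 and 2.74 FPKM in ESCs at 0 h, 2.64 and 2.17 at 4 h and 1.04 and 0.938 at 20 h, but the degron acts on the protein, so this checks nothing about it.

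In the gradient, C/D box snoRNAs were more abundant after 12 h of IAA in every fraction. Members summed to 6289 FPKM in F2 at 12 h, against 4137 at 0 h. The widest gap was in F5, with 12441 FPKM at 12 h against 5027 at 0 h, a ratio of 2.47. In F9 they summed to 7477 FPKM at 12 h and 3971 at 0 h. Over the 8 fractions the ratio ran from 1.52 to 2.47, and the totals were 72624 FPKM at 12 h and 39332 at 0 h, or 1.85-fold. The H/ACA box snoRNAs (36 Snora genes chosen by the same limit) had a ratio of 1.56, snRNA genes 1.50, all genes 1.18, coding genes 0.934 and the members' hosts 0.880. With 1 library per fraction and time these values have no replicate check and no test. The members' share of all FPKM ran from 0.823% to 5.36% at 12 h and from 0.549% to 3.02% at 0 h.

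**Figure D1:**
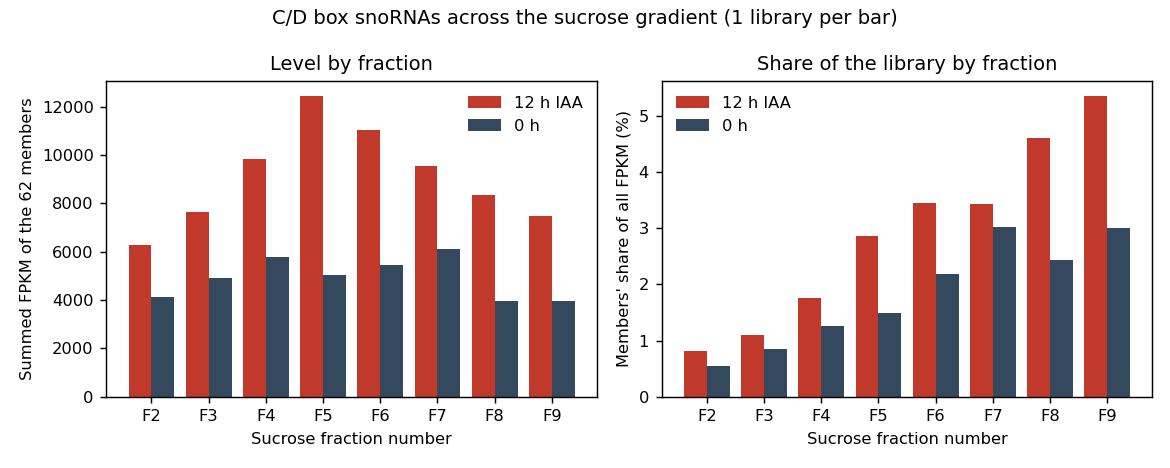
Summed FPKM of the 62 members (left) and their share of all FPKM in percent (right) in sucrose fractions F2 to F9, at 12 h of IAA (red) and 0 h (blue), 1 library per bar. The 12 h bar is the taller in every fraction, with the widest ratio, 2.47, in F5.

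Of the 62 members, 53 had a higher sum at 12 h. A rise of at least 1 on the log2(sum + 1) scale was seen in 22 members (35.5%), where 8.22% of 14922 genes with a sum of 8 or more did so, and a decrease of that size in 3 members (4.84%), against 2.97% of genes. Higher levels in all 8 fractions were seen in 14 members (22.6%), against 8.46% of genes. The median member difference was 0.83 on that scale, that of all genes -0.14. Low sums are unsteady: 6 members had under 8 FPKM at one of the times, and they held the 3 large decreases (Snord45b, Snord4a and Snord47) and 3 of the 22 rises (Snord52, Snord60 and Snord73a). Among the other 56 members 19 were higher by at least 1 and 0 lower by that much. Among the 35 members with at least 80 FPKM at both times 33 were higher at 12 h, and their range was -0.25 to 3.07.

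Snord13 and the RNAs known to act in cutting or folding the ribosomal precursor were higher at 12 h. Snord13 had 14731 FPKM over the 8 fractions at 12 h and 7519 at 0 h, a log2 difference of 0.97. Snord14e had 4785 FPKM at 12 h against 2351 at 0 h (1.03). Snord14c and Snord14d, its neighbours in Hspa8, had 1347 and 1143 FPKM at 12 h against 790 and 627 at 0 h. Reads of these U14 copies, and those of Snord15a and Snord15b, may be split between near-identical genes, so their single values are uncertain. Snord22, known from frog oocytes for small-subunit processing, had 4499 FPKM at 12 h and 2527 at 0 h (0.83). Snord118, known there for large-subunit processing and in the table outside any other gene (chr11:69073427-69073561), had 1128 FPKM at 12 h and 642 at 0 h (0.81).

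Methylation guides gave the largest differences. Snord11 in Nop58 (chr1:59704790-59704873) had 123, 198, 214, 235, 154, 24.3, 37.6 and 17.9 FPKM from F2 to F9 at 12 h. At 0 h it had 37.9, 9.3, 14.3, 6.4, 15.3, 0, 12.3 and 23.0 FPKM. Its sums were 1004 FPKM at 12 h and 118 at 0 h, a log2 difference of 3.07, and F9 was the only fraction in which it was lower at 12 h. Snord99 had sums of 3664 FPKM at 12 h and 1189 at 0 h (1.62), and Snord8 (chr14:52209785-52209894) of 257 FPKM at 12 h and 80.5 at 0 h (1.66). The value of Snord99 is uncertain, since its listing was uneven between tables. It reached 0.1 FPKM in 15 of 16 gradient libraries and was found in 8 of 8 nascent ones. It did so in only 1 of 6 ESC total RNA libraries, 1 of 16 of the subcellular fractions and 1 of 12 of RAD0 and RAD1 cells. Snord104 differed by 0.75, with 9312 FPKM at 12 h and 5528 at 0 h. Only Snord89 (chr1:39548745-39548854) and Snord87 were lower at 12 h among members of at least 80 FPKM, with 592 FPKM at 12 h against 702 at 0 h and 96.2 at 12 h against 115 at 0 h, each a difference of -0.25.

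Members of the same host differed in size of change. In Rpl13a, Snord32a had 7712 FPKM at 12 h and 3557 at 0 h, Snord35a had 1227 at 12 h and 637 at 0 h, Snord33 had 539 at 12 h and 325 at 0 h, and Snord34 had 688 at 12 h and 496 at 0 h. All were higher, while the Rpl13a gene itself summed to 1082 FPKM at 12 h and 1349 at 0 h. In 2410006H16Rik, Snord49a had 896 FPKM at 12 h and 503 at 0 h, Snord65 had 1732 at 12 h and 1013 at 0 h, and Snord49b had 2217 at 12 h and 1686 at 0 h. That host differed by 0.06 on the log2 scale. Nop58 summed to 433 FPKM at 12 h and 555 at 0 h, the opposite direction to Snord11 within it.

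Over all 59 members with a host, 54 had a log2 difference above that of the host, by a median of 1.07. Of the 29 members with at least 80 FPKM and a host of at least 8 FPKM at both times, lying in 20 hosts, all 29 were above their host. Members that share a host share its value, so these are not independent.

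**Figure D2:**
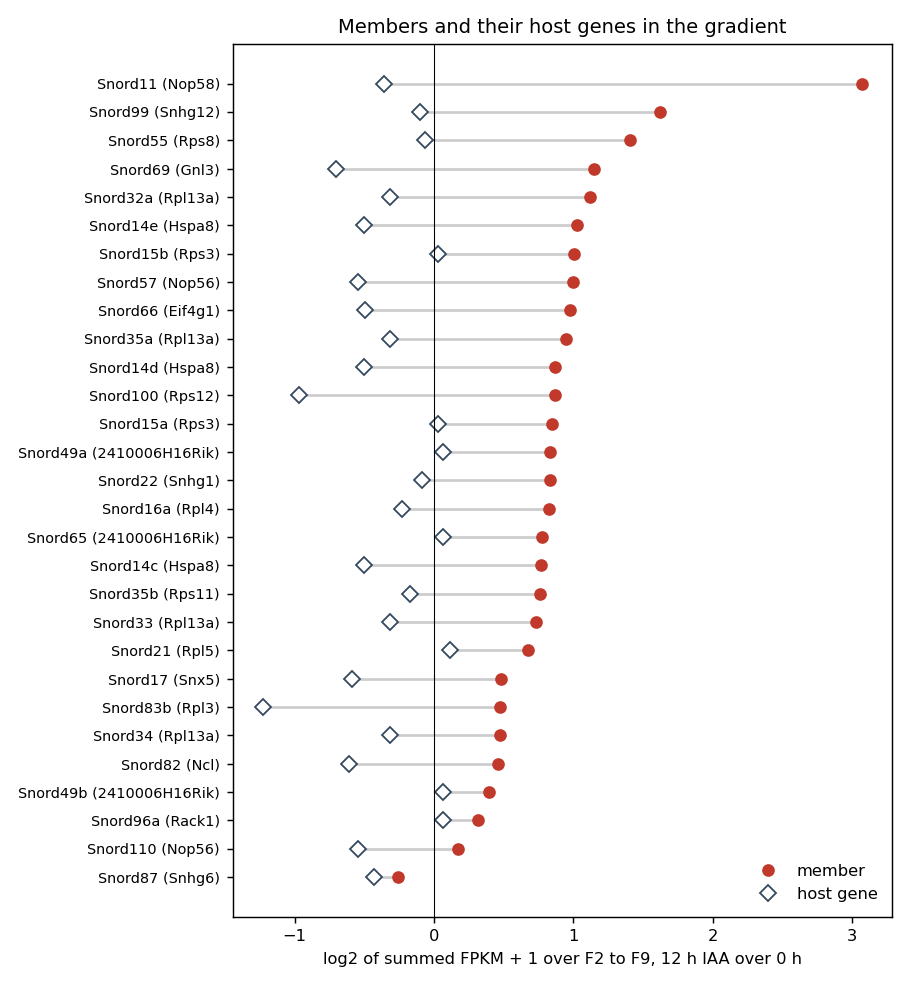
Log2 difference of summed FPKM + 1, 12 h of IAA over 0 h, for 29 members (filled circles) and their hosts (open diamonds), with the host in brackets. Every circle lies right of its diamond, from Snord11 at 3.07 with Nop58 at -0.36 down to Snord87 at -0.25.

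Members took different places along the gradient. The labels do not say which end F2 is, so positions are given as fraction numbers. Snord13 at 12 h had 985, 1786, 2646, 3251, 2116, 1234, 1211 and 1502 FPKM from F2 to F9, against 824, 1443, 1642, 1024, 518, 676, 570 and 822 FPKM at 0 h. It was highest in F5 at 12 h and in F4 at 0 h. Snord22, Snord32a and Snord65 moved likewise, with the highest level in F5 at 12 h and F4 at 0 h. Snord104 was highest in F7 at 12 h (2159 FPKM) and F6 at 0 h (1479 FPKM). Snord17, Snord118 and Snord89 were highest in F9 at 0 h; Snord17 had 432 FPKM there and 68.0 in F2, and at 12 h its highest level, 485 FPKM, was in F7.

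**Figure D3:**
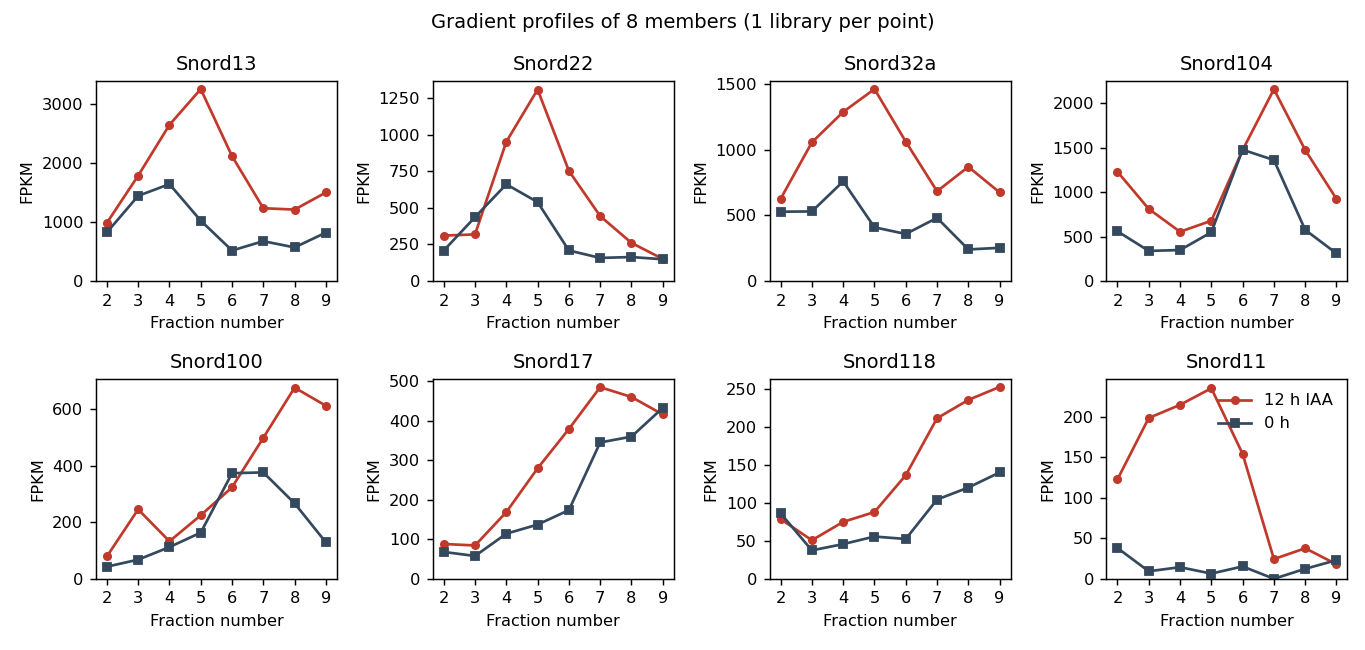
FPKM by sucrose fraction number for 8 members at 12 h of IAA (red circles) and 0 h (blue squares), 1 library per point. Snord13, Snord22 and Snord32a are highest in F4 or F5, Snord104 in F6 or F7, Snord118 in F9, and Snord11 is above its 0 h level in F2 to F8.

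The mean fraction number, weighted by FPKM, had a member median of 5.51 at 0 h over the 56 members with 8 FPKM at both times, where all genes had 4.94. It ran from 3.70 to 9.0. The median shift at 12 h was -0.00 for members and 0.44 for all genes. A shift of at least 0.5 to higher numbers was seen in 9 members (16.1%), against 37.0% of genes, and one to lower numbers in 14 members (25.0%), against 1.23% of genes. Several of those 14 have low values, so the named shifts are those of members with at least 80 FPKM at both times. To higher numbers these were Snord82 (1.04), Snord34 (0.95), Snord8 (0.84), Snord35b (0.79), Snord21 (0.71) and Snord49a (0.68), which kept their sign in 5 alternatives. To lower numbers they were Snord66 (-0.68), Snord87 (-0.67), Snord11 (-0.57), Snord110 (-0.57) and Snord42a (-0.56). Of these 5 only Snord66 kept its sign: Snord42a turned to 0.19 without F2, Snord11 turned to 0.32 without F9, Snord110 to 0.11 without F2, and Snord87 to 0.48 without F2 and to 0.30 with equal library totals.

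In the subcellular fractions, C/D box snoRNAs were concentrated in chrRNP. Members made up 26.4% and 23.1% of summed FPKM in the chrRNP libraries at 4 h and 27.8% and 22.7% at 0 h. In np they made up 2.75% and 5.09% at 4 h and 2.96% and 3.93% at 0 h, and in cyto 0.624% and 0.393% at 4 h and 0.608% and 0.143% at 0 h. Whole cells had 7.45% and 6.54% at 4 h and 5.60% and 7.05% at 0 h. Lists of marker RNAs were summed at 0 h. Nuclear RNAs, Malat1 among them, summed to 46948 and 37168 FPKM in chrRNP against 6010 and 5877 in cyto. Cytosolic mRNAs, Actb among them, summed to 593 and 1301 FPKM in chrRNP against 5027 and 4735 in cyto. Such a sum follows the highest RNAs of its list and is not the level of the RNA named.

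Of 44 members tested with limma on log2(FPKM + 1), with Benjamini-Hochberg adjustment over all genes, 29 (65.9%) were higher in chrRNP than in cyto at 0 h and 0 were lower. Among all 14069 genes tested 14.3% were higher and 63.4% lower. The members' median log2 difference was 7.02 and that of all genes -0.88. Against np, 19 members (43.2%) were higher in chrRNP and 0 lower, where 4.99% of genes tested were higher and 74.6% lower. In np against cyto 12 members (27.3%) were higher, with 28.0% of all genes higher and 33.8% lower, and Snord33 was lower, with 0 and 0 FPKM in np and 144 and 152 in cyto. The 18 members not tested reached 1 FPKM in at most 1 library.

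Snord13 had 16251 and 11549 FPKM in chrRNP at 0 h, 558 and 139 in np, 377 and 181 in cyto and 3841 and 4323 in whole cells. The groups did not overlap, and the chrRNP level was 5.71 ± 0.58 above cyto on the log2 scale (SE, limma adjusted p = 6.6e-06). Snord22 was spread further, with 3743 and 2300 FPKM in chrRNP, 928 and 1155 in np and 89.6 and 53.5 in cyto. It was 5.38 ± 0.31 above cyto (limma adjusted p = 5.5e-07) and 1.50 ± 0.31 above np (limma adjusted p = 0.0011). Snord17, the longest member, had 1070 and 844 FPKM in chrRNP, 136 and 146 in np and 19.6 and 35.3 in cyto, with a difference of 5.12 ± 0.31 from cyto (limma adjusted p = 6.4e-07). Snord118 had 1391 and 1294 FPKM in chrRNP, 25.9 and 39.3 in np and 0 and 15.3 in cyto. Snord15b in Rps3, a guide for large-subunit ribosomal RNA, had 9775 and 5635 FPKM in chrRNP, 360 and 241 in np and 79.3 and 34.9 in cyto, a difference of 7.11 ± 0.43 from cyto (limma adjusted p = 6.2e-07). The chrRNP calls against cyto of these 5 held with any library left out.

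The highest single level was that of Snord49b, with 61331 and 38753 FPKM in chrRNP at 0 h, 6188 and 6915 in np and 426 and 0 in cyto. Snord104 had 14064 and 8707 FPKM in chrRNP and was listed at 0 in all 4 np and cyto libraries at 0 h. Snord32a, which had the third-highest gradient sum, had 6989 and 3680 FPKM in chrRNP, 565 and 0 in np and 0 and 0 in cyto. Snord99 and Snord11 were not listed above 0.1 FPKM in either chrRNP library at 0 h although the gradient held both. Of the 29 calls against cyto, 19 held in all alternatives. Among those lost without 1 library were Snord65, with adjusted p (limma) up to 0.17, Snord14d up to 0.24 and Snord83b up to 0.19.

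Of 40 hosts tested with limma, 5 were higher in chrRNP than in cyto and 28 lower, with a median log2 difference of -1.16. Of all genes tested there, limma called 14.3% up in chrRNP and 63.4% down, and their median was -0.88. The log2 difference was greater for the member than for its host in 36 of 38 cases. Where np was listed for a member in both libraries, its mean at 0 h was 2.43% of the chrRNP mean for Snord118, 2.51% for Snord13, 14.7% for Snord17, 34.5% for Snord22 and 78.4% for Snord89, with a median of 12.0% over 14 members. The chrRNP mean was 1.38 (Snord35a) to 18.1 (Snord65) times that of whole cells over 25 members, median 4.41. These ratios compare FPKM, each relative to its own library, and are not shares of the RNA in a cell.

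**Figure D4:**
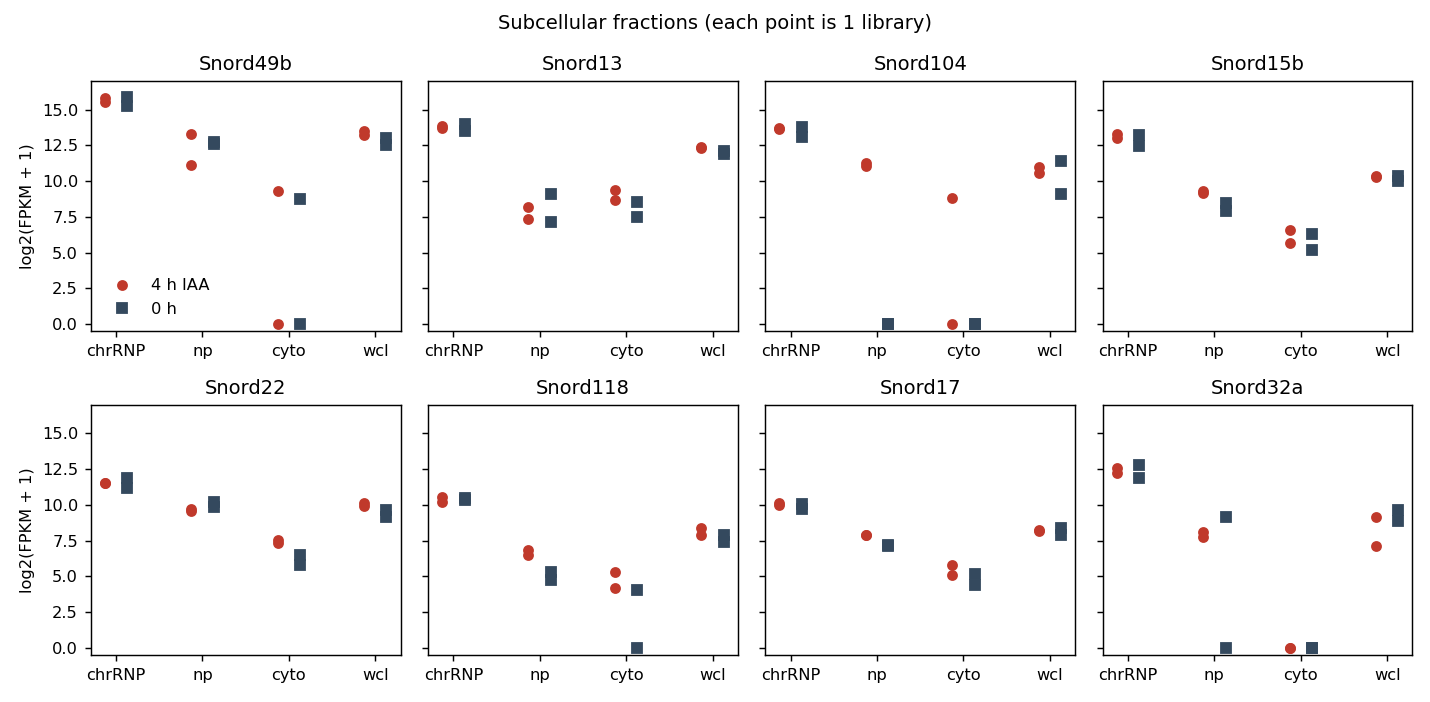
Log2(FPKM + 1) of 8 members in chrRNP, np, cyto and whole cells (wcl) at 4 h of IAA (red circles) and 0 h (blue squares), each point 1 library. In every panel chrRNP is the highest, and points at 0 are libraries in which the member was listed at 0.

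After 4 h of IAA the members in chrRNP showed no call. Of the 44 tested with limma, 0 passed adjusted p of 0.05 and 3 had an unadjusted p under 0.05, while 8.82% of all genes were called. Snord13 had 13708 and 15161 FPKM in chrRNP at 4 h and 16251 and 11549 at 0 h. Snord49b had 58252 and 47071 FPKM at 4 h and 61331 and 38753 at 0 h, and Snord22 had 2969 and 2946 at 4 h and 3743 and 2300 at 0 h. In each of these the 4 h values lay within the range at 0 h. The log2 difference was 0.01 ± 0.31 for Snord22 and 0.07 ± 0.58 for Snord13 (SE). Other members differed more, in both directions. Snord14d had a mean of 5751 FPKM at 4 h against 2734 at 0 h, and Snord42a 650 at 4 h against 3019 at 0 h. The median SE of a log2 difference was 2.03 for members and 0.183 for all genes, so the lack of calls does not show that members stayed level.

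In the soluble fractions few members were called, at shares near those of all genes. Of the 62 members, 37 in np and 41 in cyto were not listed in either library at 0 h. Those could only rise, so the direction of the calls is no result. In np 4 of 44 members (9.09%) were called higher by limma and 0 lower, where 7.43% of all genes were higher and 23.4% lower. Snord104 was at 2448 and 2141 FPKM in np at 4 h and listed at 0 and 0 at 0 h (limma adjusted p = 0.0020). Snord33 had 1016 and 1532 FPKM at 4 h, against 0 and 0 at 0 h (limma adjusted p = 0.0016). Both calls held in all alternatives. Snord14c had 699 and 853 FPKM at 4 h and Snord8 had 48.7 and 53.5, both listed at 0 in the 2 libraries at 0 h, and with any 1 of the 4 libraries left out limma's adjusted p was 0.054 to 0.058 for Snord14c and 0.13 to 0.14 for Snord8.

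In cyto 3 of 44 members (6.82%) were higher at 4 h and 0 lower, where limma called 5.04% of all genes higher and 1.41% lower. Snord22 had 157 and 181 FPKM at 4 h and 89.6 and 53.5 at 0 h, a difference of 1.27 ± 0.31 (limma adjusted p = 0.036). Snord14e had 143 and 134 FPKM at 4 h and Snord11 had 280 and 266, and both were listed at 0 in the 2 libraries at 0 h (limma adjusted p = 0.037 and 0.017). None of the 3 calls held throughout. That of Snord22 was lost without cyto 0 h replicate 2, where the difference was 0.90, and without either 4 h library, with limma's adjusted p up to 0.24. Those of Snord14e and Snord11 were lost whichever of the 4 libraries was left out, with adjusted p (limma) up to 0.16 and 0.097. The difference between the change in chrRNP and that in cyto, limma's interaction term, was called for 0 of 44 members and 0.135% of all genes, and 4 members had an unadjusted p under 0.05. In whole cells 2 members were lower at 4 h, where limma called 13.5% of all genes lower and 5.74% higher. These were Snord57, at 0 and 0 FPKM at 4 h against 303 and 308 at 0 h (limma adjusted p = 1.9e-05), and Snord35b, at 115 and 115 at 4 h against 135 and 258 at 0 h (limma adjusted p = 0.044). In chrRNP Snord57 had a mean of 1702 FPKM at 4 h and 1291 at 0 h, so its whole-cell values of 0 do not show a loss from the cells. The Snord35b call was lost without whole-cell 0 h replicate 2, where the difference was -0.23, and without either 4 h library, with limma's adjusted p up to 0.20.

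In total RNA of ESCs the members took a larger part of the signal at 20 h than at 0 h. They made up 2.08% and 3.89% of summed FPKM at 0 h, 3.26% and 1.99% at 4 h and 6.26% and 6.82% at 20 h. Member sums were 10041 and 19173 FPKM at 0 h and 20908 and 22100 at 20 h. All genes summed to 481878 and 492306 FPKM at 0 h and 333780 and 323866 at 20 h, so part of the larger share is the lower total. Long members were listed more steadily than short ones. In 48.8% of the cases where a member was listed in a group (at 0.1 FPKM or more) it was so in 1 of the 2 replicates, with 17.4% for members of at least 100 bases and 61.0% for shorter ones. The median SE of a log2 difference was 2.82 for members and 0.147 for all genes. Hence 27 members were tested, 9 were listed in all 6 libraries and 23 in none.

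Snord13 rose. It had 492 and 594 FPKM at 0 h, 1483 and 1065 at 4 h and 1499 and 2171 at 20 h. Both treated groups lay above the 0 h libraries. The log2 difference was 1.22 ± 0.25 at 4 h (limma adjusted p = 0.027) and 1.74 ± 0.25 at 20 h (limma adjusted p = 0.00091). The 20 h call held in all alternatives. At 4 h it was lost without either library of 0 h, at adjusted p (limma) of 0.15 without the first and 0.074 without the second, and also without the first library of 4 h (0.094). Snord118 ran the other way, with 240 and 206 FPKM at 0 h, 140 and 290 at 4 h and 25.4 and 97.2 at 20 h. It fell by 2.13 ± 0.61 at 20 h (limma adjusted p = 0.017), a call lost without the filter on low values and after rescaling, where the difference was -1.18. Both genes stand outside any host.

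Snord21 in Rpl5, a guide for large-subunit ribosomal RNA, had 302 and 166 FPKM at 0 h, 137 and 527 at 4 h and 1072 and 1913 at 20 h. It rose by 2.67 ± 0.64 at 20 h (limma adjusted p = 0.0081), while Rpl5 fell by 0.76. Snord65 was listed at 0 in all 4 libraries at 0 and 4 h and had 1090 and 665 FPKM at 20 h (limma adjusted p = 9.2e-06). Only the 20 h libraries brought it past the filter on low values, so that p-value is no support for a rise. Its SE was 0.22, with 4 libraries listed at 0, where the member median was 2.82. Without either 20 h library Snord65 no longer passed that filter and was not tested. In the whole-cell libraries of the fractions Snord65 had a mean of 760 FPKM at 0 h and 1030 at 4 h. Snord88c, one of several like copies and therefore uncertain, had 232 and 256 FPKM at 0 h and was listed at 0 at 4 and 20 h. Snord8 was listed at 0 in both libraries at 0 h and had 89.3 and 100.4 FPKM at 4 h (limma adjusted p = 0.037) and 0 and 60.2 at 20 h. The Snord8 call at 4 h was lost whichever of the 4 libraries was left out, with adjusted p (limma) of 0.078 to 0.14.

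In all, limma called 2 members higher and 1 lower at 4 h, where 4.47% of all genes were higher and 21.2% lower, and 3 higher and 2 lower at 20 h, where 9.47% were higher and 67.8% lower. Members had a median log2 difference of 0.82 at 20 h, all genes -0.76. Without either library of 0 h Snord88c no longer passed the filter and was tested at neither time, and the count at 4 h was 0. Without 0 h replicate 2 the count at 20 h was 10, and without 20 h replicate 2 it was 9. The other members listed in every library were not called. Snord22 had 277 and 479 FPKM at 20 h and 543 and 384 at 0 h (limma adjusted p = 0.33), Snord17 95.1 and 145 at 20 h and 124 and 96.4 at 0 h (limma adjusted p = 0.70), and Snord15b 467 and 597 at 20 h and 415 and 313 at 0 h (limma adjusted p = 0.10). Snord14c had 1938 and 1187 FPKM at 20 h and 667 and 1100 at 0 h (limma adjusted p = 0.073), and Snord33 2455 and 499 at 20 h and 346 and 378 at 0 h (limma adjusted p = 0.058). With these SEs a missed threshold does not show that they stayed level.

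The genes around them fell. Of 39 hosts tested at 20 h, 37 were lower by limma and 2 higher, with a median of -1.41, and 18 of 22 members were above their host. The core proteins of the particle fell at 20 h in 4 of 4 genes tested, Fbl by 1.60, Nop56 by 1.53, Nop58 by 1.31 and Snu13 by 1.71 on the log2 scale. Genes of snoRNA assembly were lower in 9 of 10, led by Nolc1 (-2.39, a nucleolar chaperone), and those of release and trimming in 13 of 13, among them Dbr1 (-1.76, which debranches intron lariats) and Exosc10 (-0.96). Of the proteins of the U3 processome 7 of 8 were lower, and of 17 noncoding host genes 10 were lower and Snhg20 was higher (2.20). At 4 h limma called 1 of the 4 core proteins lower, Nop56 (-0.79, adjusted p = 0.019). These counts stand beside 67.8% of all genes lower at 20 h. ESC markers summed to 506 and 460 FPKM at 20 h against 1607 and 1557 at 0 h, and trophoblast markers to 77.1 and 77.7 at 20 h against 12.9 and 12.5 at 0 h. Most of the trophoblast sum was Krt18, with 50.3 and 49.5 FPKM at 20 h and 8.96 and 8.08 at 0 h. Krt8 had 20.8 and 20.7 FPKM at 20 h and 3.09 and 3.67 at 0 h. Hand1, Cdx2 and Gata3 had at most 5.69 FPKM each at 20 h. Krt18 also had 42.2 and 37.1 FPKM in iMEFs at 0 h, so the sum is not particular to trophoblast. The markers' part in these changes was not tested, and fewer cells of a type and less RNA per cell cannot be told apart.

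**Figure D5:**
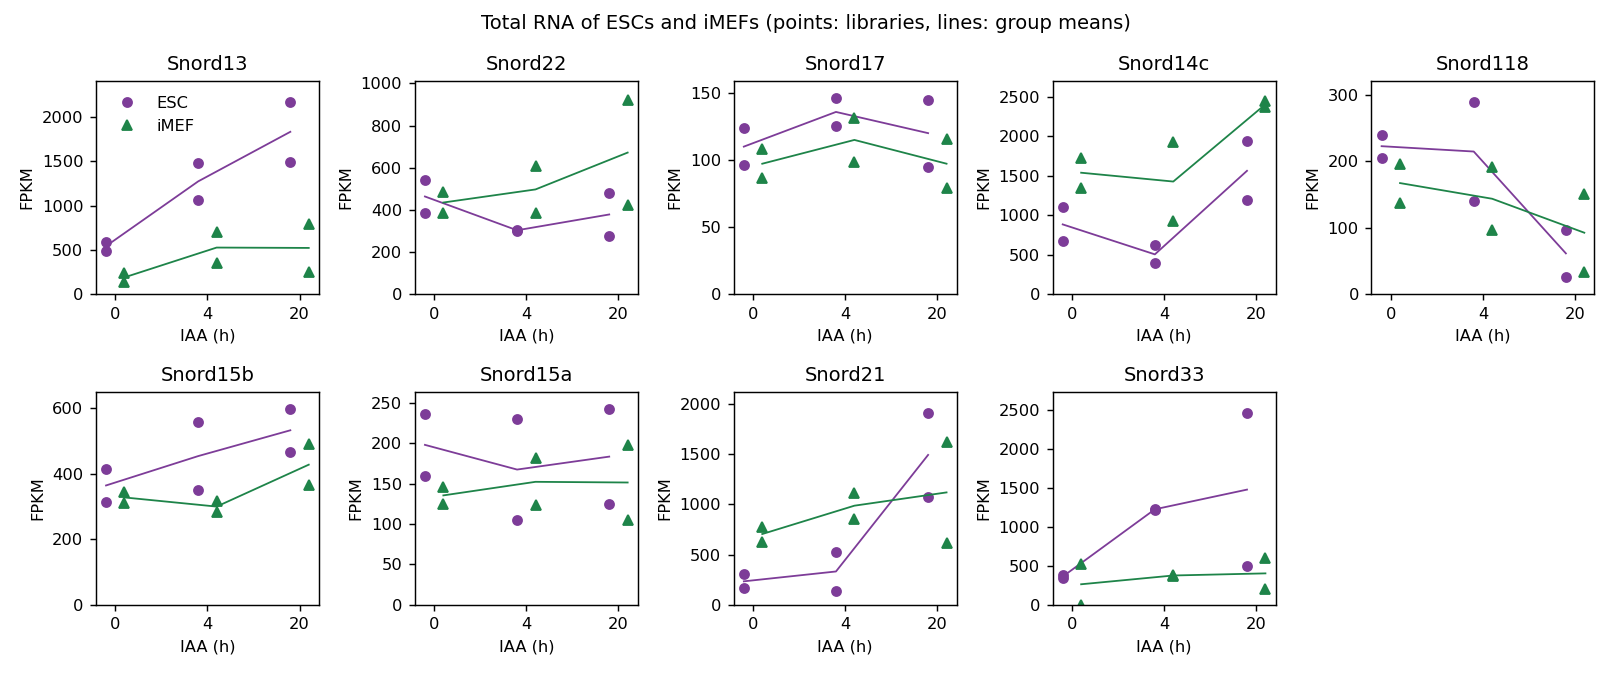
FPKM of the 9 members listed in every ESC library, in total RNA after 0, 4 and 20 h of IAA in ESCs (purple circles) and iMEFs (green triangles), each point 1 library and lines joining the group means. In ESCs Snord13 and Snord21 are higher at 20 h than at 0 h and Snord118 is lower.

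In iMEFs the called changes were few. At 4 h 0 of 27 members were called by limma, where 1.63% of all genes were called, and 3 had an unadjusted p under 0.05. At 20 h 2 were higher, where 5.21% of all genes were higher and 22.2% lower. Snord14d had 267 and 342 FPKM at 0 h, 764 and 735 at 4 h and 978 and 2418 at 20 h. It rose by 2.34 ± 0.39 at 20 h (limma adjusted p = 0.0089), a call that missed the threshold without the filter on low values (0.056). Snord8 had 107 and 161 FPKM at 20 h and was listed at 0 in both libraries at 0 h, with limma's adjusted p of 0.040 and of 0.093 to 0.18 when any 1 of these 4 libraries was left out.

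Snord13 and Snord118 in iMEFs had the directions seen in ESCs without passing the test. Snord13 had 239 and 139 FPKM at 0 h, 698 and 354 at 4 h and 794 and 249 at 20 h. Its libraries did not overlap with those at 0 h, and the difference at 20 h was 1.28 (limma adjusted p = 0.15). Snord118 had 197 and 138 FPKM at 0 h, 191 and 95.9 at 4 h and 152 and 33.5 at 20 h, a difference of -1.19 (limma adjusted p = 0.22). The difference between the cell types was not tested, since the tables were normalized separately.

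Nascent RNA showed no called member. Of 59 members tested with limma 0 were called at 1, 2 and 4 h, with 0.0451%, 0.0113% and 1.9% of all genes called and 3, 5 and 6 members with an unadjusted p under 0.05. The median log2 difference of members was 0.05 at 1 h, 0.28 at 2 h and -0.51 at 4 h, where that of all genes was 0.03, 0.00 and -0.03. At 4 h 39 members were lower and 18 higher. Members held 1.95% and 1.91% of summed RPKM at 0 h, 2.15% and 2.42% at 1 h, 1.70% and 2.10% at 2 h and 0.967% and 1.58% at 4 h, so the first 4 h library was the lowest. One read over 80 bases was worth 1.11 to 2.33 RPKM, and members together had 1013 to 2269 reads a library, with a median of 7.0 to 22.5 reads a member. Snord118 had 68.6 and 113 RPKM at 0 h, 149 and 172 at 2 h and 168 and 156 at 4 h. Its difference at 4 h was 0.87 ± 0.28 (limma adjusted p = 0.20). Snord22 had 81.8 and 132 RPKM at 4 h and 168 and 142 at 0 h, a difference of -0.57 ± 0.27 (limma adjusted p = 0.36). Snord13 had between 0 and 42.8 RPKM and was listed at 0 in 5 of 8 libraries, so its nascent level could not be followed at this depth.

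In polyadenylated RNA members made up 0.123% to 0.308% of summed FPKM in the RAD0 and RAD1 libraries. In RAD0 cells limma called 5 of 37 members higher and 1 lower at 20 h, where 18.4% of all genes were higher and 33.0% lower. Snord35a had 34.8 and 52.3 FPKM at 20 h against 0 and 0 at 0 h (limma adjusted p = 0.0010) and Snord85 had 22.8 and 78.2 at 20 h against 0 and 0 at 0 h. Snord71 and Snord11 were likewise listed at 0 at 0 h. Members at 0 in both 0 h libraries could only rise, so the direction of those calls is no result. Snord35a was also at 0 in RAD1 cells at 0 h, so only libraries with IAA brought it past the filter on low values. Its p-value is no support for a rise. Snord17 had 12.0 and 10.6 FPKM at 20 h and 3.3 and 6.9 at 0 h, a rise of 1.08 ± 0.36 (limma adjusted p = 0.033). Snord14c, with 0 and 0 FPKM at 4 and 20 h and 11.9 and 36.7 at 0 h, was the only member lower, and at 4 h the only one called, where 5.26% of all genes were higher and 13.5% lower. When a library was left out, limma's adjusted p reached 0.21 for Snord17, 0.096 for Snord71, 0.074 for Snord11, 0.069 for Snord85 and 0.099 for Snord14c at 4 h.

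In RAD1 cells 3 members were higher and 1 lower at 20 h by limma, where 23.1% of all genes were higher and 33.8% lower. Snord35a was called here too, with 14.1 and 10.6 FPKM at 20 h against 0 and 0 at 0 h (limma adjusted p = 0.0067). It again could only rise, so this p-value is no support for a rise. Snord14e had 71.1 and 27.1 FPKM at 20 h against 0 and 8.8 at 0 h, and Snord14c 13.5 and 31.8 at 20 h against 0 and 10.4 at 0 h. These last calls were lost when some libraries were left out, with adjusted p (limma) up to 0.070 for Snord14e and 0.26 for Snord14c. Snord13 had 63.7 and 45.4 FPKM at 0 h, 8.3 and 8.4 at 4 h and 10.1 and 0 at 20 h, and was lower at 20 h (limma adjusted p = 0.0060), a call held in all alternatives. Its direction is the opposite of that in rRNA-depleted ESC RNA. Those ESCs had LIF and no retinoic acid, their RNA was not selected for polyadenylation, and the 2 tables were normalized separately. In RAD0 cells, which had no retinoic acid, Snord13 was not called at 4 or 20 h. At 4 h Snord8 was higher and Snord118 and Snord33 lower, where limma called 18.1% of all genes higher and 32.7% lower, and all 3 calls were lost without 1 library. Over the left-out libraries limma's adjusted p reached 0.20 for Snord8, 0.28 for Snord118 and 0.092 for Snord33. In the insoluble pellet only Snord17 could be tested and was not called at 4 or 12 h, where limma called 24.6% and 48.0% of all genes and Snord17 had no unadjusted p under 0.05. One of its libraries, 0 h replicate 2, stood apart: members held 49.0% of its FPKM, Snord49b alone 42.2%, and at most 0.0112% in the other 5 libraries.

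Among the comparisons with IAA outside the gradient, Snord14c was called in 4, as higher in np at 4 h and RAD1 at 20 h and as lower in RAD0 at 4 and 20 h. Snord8 was called in 4 and Snord11 in 2, each time as higher, and Snord13 in 3, as higher in ESCs at 4 and 20 h and lower in RAD1 at 20 h. Uncalled means of Snord8 also ran lower, with 47.2 FPKM at 4 h against 120.7 at 0 h in chrRNP. In whole cells they were 17.4 FPKM at 4 h and 65.5 at 0 h. Snord11 and Snord8 are followed here across all tables. Outside the gradient and nascent tables Snord11 was listed in 9 of 28 libraries with IAA and in 0 of 18 at 0 h. Snord8 was listed in 19 of 28 with IAA and in 5 of 18 at 0 h. Nascent RNA held Snord11 in both 0 h libraries, at 86.4 and 13.5 RPKM, and in 5 of 6 libraries with IAA. These are counts of libraries that share tables and cultures, and both genes were chosen after they had been called, so no test was made.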

How the data were processed

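The submitters' processing notes name TopHat2 2.0.11, Cufflinks 2.0.2 and the build mm10 for the FPKM values that the authors deposited. For the nascent table, deposited as RPKM, the same notes list Trim Galore, TopHat2 and bedtools. No source used here says whether the authors applied a spike-in factor. The members and lists were chosen with earlier results of these data known.

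Values were fitted as log2(value + 1) with limma 3.58.1 (trend, moderated, two-sided) in R 4.3.3, for genes that reached 1 in 2 or more libraries, with a model for each table that held all of its groups. P-values were adjusted by Benjamini-Hochberg over all genes tested, threshold 0.05, in 21 comparisons. A value under 0.1 was counted as not listed. The fit was tested on simulated data. Gradient sums and mean fraction numbers were described without a test, for genes with a sum of at least 8. Hosts are the smallest gene spanning a member, on either strand. All called members are named where there are at most 12, and otherwise part of those the rule gives, beside the 10 highest sums. Promoters came from RefSeq (GRCm38.p6). Other steps used Python 3.11.15, numpy 2.4.6, pandas 2.3.3, matplotlib 3.10.9 and the R package data.table (version 1.17.8). The alternatives tried were no filter, a pseudocount of 0.1, libraries rescaled by the median gene, no trend, a replicate block and each library left out. Peak lists were not used. Whole reads recovered from the nascent RPKM came within 0.1 of a whole number for 96.2% to 97.4% of values and were used to describe depth alone.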

Additional observations from a re-analysis of the deposited data

How the results depend on the processing

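Of 208 alternative values for 24 results, 162 stayed close to the reported ones and 46 moved. Counts of called members made up 21 of these results and have no direction that could reverse. The median gradient shift lay so near 0 that its sign differed between alternatives. Of 94 called members 54 kept their call in every alternative, and of the 33 called after IAA 9 did, with members no longer tested counted as lost. The main limit is that short members are listed in 1 replicate and at 0 in the other. The causes of the moves were not tested.

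With no filter on low values, the members called were 1 in ESCs at 4 h, 1 in cyto, 1 in whole cells, 1 in RAD1 cells at 4 h and 0 in iMEFs at 20 h. Rescaled libraries gave 8 in ESCs at 20 h, 1 in chrRNP, 1 in cyto and 1 in whole cells at 4 h, after shifts of the median of all genes of -0.31 at 4 h and -0.76 at 20 h in ESCs. A pseudocount of 0.1 gave 1 in whole cells and 1 in RAD1 cells at 4 h, and a fit with no trend 1 in whole cells. With the replicate block, 1 member was called in iMEFs at 4 h, and 20 of 21 counts stayed close; same-numbered libraries did not deviate together (correlations of -0.03 to 0.15 in ESCs), so the numbers were not taken as pairs.

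Leaving out 1 library gave 0 to 3 called members in ESCs at 4 h and 5 to 10 at 20 h; 0 to 2 in chrRNP, 3 to 4 in np, 1 to 4 in cyto and 1 to 3 in whole cells at 4 h; 21 to 28 for chrRNP against cyto, 11 to 13 for np against cyto and 18 to 20 for chrRNP against np; and 0 to 3 for the interaction. The ranges were 0 to 1 in nascent RNA at 2 h, 0 to 1 in the pellet at 4 and 12 h, 0 to 1 and 4 to 5 in RAD0 cells at 4 and 20 h, 1 to 4 and 3 to 8 in RAD1 cells, and 0 to 2 and 1 to 6 in iMEFs.

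In the gradient, equal library totals gave a median log2 difference of 0.58 with 48 of 61 members higher. The mean fraction number at 0 h was 6.45 with equal totals, 6.27 with scaling by the median of genes, 5.13 without F9 and 5.82 without F2. The median shift was -0.52 with scaling by the median of genes and between 0.04 and 0.12 in the other alternatives, where all genes had 0.07 and 0.35 to 0.48.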
